A study of Mus musculus with 38 samples.

Results

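The genes described here are 9 members of the matrix metalloproteinase system, the proteases Mmp2, Mmp3, Mmp9, Mmp13, Mmp14 and Mmp23 and the inhibitors Timp1, Timp2 and Timp3, out of 13260 genes in the RNA-Seq table. They were chosen by gene name, and all 9 were found in the table. Mmp3 was picked for its fall in osteoprogenitors of myeloma-bearing mice, so its values in osteoprogenitors are given as a description and are not tested. The study used C57Bl/KaLwRij mice, aged 8 to 10 weeks at inoculation, which received an intravenous injection of either PBS vehicle (healthy mice) or 1000000 5TGM1-GFP cells (myeloma-bearing mice). 5TGM1-GFP is an established murine myeloma line labelled with green fluorescent protein (GFP), and it was the only tumour line in these samples. All mice were culled on day 23, and no drug was given. After flushing, crushing and collagenase digestion of the bones, 100 cells per library were sorted from the bone lining as endothelial cells (EC; CD31+), stromal progenitors (SP; CD31-, Sca1+, ALCAM-) or osteoprogenitors (OP; CD31-, ALCAM+, Sca1-), all 3 gated as negative for CD45 and Ter119, and GFP+ myeloma cells (MM) were sorted from the bone lining and from the central marrow. This gave 8 groups and 38 libraries, with 5 libraries per group except for osteoprogenitors, which had 4 from healthy and 4 from myeloma-bearing mice. The replicates of a group came from different mice and are named here by the letter of their library code.

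Matrix metalloproteinases are zinc-dependent enzymes that are made as inactive proforms and cut collagens, proteoglycans, growth factors and each other. Tissue inhibitors of metalloproteinases (Timps) are small proteins that bind the active site, so that the balance of enzymes and Timps bears on how much matrix is broken down. The collagenase Mmp13 opens the triple helix of fibrillar collagen, the gelatinases Mmp2 and Mmp9 degrade the unwound chains, the stromelysin Mmp3 cuts proteoglycans and activates other proforms, and the membrane-bound Mmp14 activates proMmp2 together with Timp2. In bone, Mmp13 is known from osteoblasts and hypertrophic chondrocytes, Mmp9 from osteoclasts and neutrophils, and Mmp2 and Mmp3 from stromal cells.

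On GRCm38 (GENCODE M21) the members lie at chr8:92827291-92853420 (Mmp2), chr2:164940780-164955850 (Mmp9), chr14:54431612-54445364 (Mmp14), chr4:155650655-155653384 (Mmp23), chrX:20870166-20874735 (Timp1), chr11:118301069-118355740 (Timp2) and chr10:86300372-86349506 (Timp3). Mmp13 (chr9:7272514-7283331) and Mmp3 (chr9:7445822-7455975) lie on the same strand of chromosome 9 with 162 kb between them. The 250 bases before their start sites, from RefSeq on GRCm38.p6, are shown because these neighbours, both high in osteoprogenitors, were the only members with an entry whose window held the motifs searched, which the choice of members did not use. The windows are chr9:7445572-7445821 (Mmp3, plus strand) and chr9:7272264-7272513 (Mmp13, plus strand). Capitals mark matches, searched on both strands. TGANTCA is an AP-1 site. AACCACA is a Runx site. TATAAA is the letter pattern of a TATA box. The 3 motifs do not overlap in these windows.
Mmp3: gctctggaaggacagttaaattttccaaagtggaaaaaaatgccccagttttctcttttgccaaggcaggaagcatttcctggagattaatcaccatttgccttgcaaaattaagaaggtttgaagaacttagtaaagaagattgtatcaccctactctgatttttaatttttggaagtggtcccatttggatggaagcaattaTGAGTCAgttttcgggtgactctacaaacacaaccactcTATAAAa
Mmp13: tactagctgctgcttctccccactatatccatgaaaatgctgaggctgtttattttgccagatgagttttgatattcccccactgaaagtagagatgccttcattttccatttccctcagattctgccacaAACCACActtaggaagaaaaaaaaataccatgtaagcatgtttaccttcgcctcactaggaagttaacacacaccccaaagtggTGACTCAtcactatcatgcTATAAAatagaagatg
Counted back from the start site, Mmp3 held TGAGTCA at -46 to -40 and TATAAA at -7 to -2. Mmp13 held AACCACA at -119 to -113, TGACTCA at -35 to -29 and TATAAA at -16 to -11. Of the 9 members 7 had an entry in the promoter table, and 2 of these 7, Mmp3 and Mmp13, held any of these motifs. Among all 32851 promoters of the same length, 6.75% held TGANTCA, 4.4% held AACCACA and 12.4% held TATAAA. A match describes letters at a distance from the annotated start site, and not binding or a working site.

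Levels are given in RPKM (reads scaled to the length of the gene and to the size of the library), which allows genes of different length to be compared, and the reads behind each value were recovered, with 9735031 to 34883291 reads on genes per library. The sorted types held their own markers. Cdh5, or VE-cadherin, was 135 to 392 RPKM in EC and at most 2.39 in the other libraries. Ly6a, which encodes Sca1, was 776 to 2871 RPKM in SP, at most 95.2 in OP and 2195 to 8769 in EC. Alcam was 1.97 to 19.2 RPKM in OP and at most 1.43 elsewhere. OP libraries also held all 5 chondrocyte genes looked at, with a summed level of 1478 to 5284 RPKM against at most 430.6 in SP. Some libraries stood apart: 5 of 11 neutrophil genes were in the table, and their sum was 7273 RPKM in SP library L of healthy mice and 8119 in SP library E of myeloma-bearing mice, against at most 292.4 in the other 36 libraries. Summed levels of the 9 osteoprogenitor genes were 104.1 RPKM in EC library O of healthy mice and 155.0 and 124.2 in EC libraries I and J of myeloma-bearing mice, against 16.38 to 66.39 in the other 7 EC libraries. Bglap alone was 79.2, 108 and 75.4 RPKM of these sums, and it was 48.0 in EC library C of healthy mice. The same sum was 37.84 to 97.25 RPKM in central marrow MM and 239.0 to 1214 in SP. EC libraries O, I and J are called high in osteoprogenitor genes only relative to other EC libraries. Values without the libraries that stood apart are given where a member's call or level turned on them. In such libraries fewer cells of a type and less RNA per cell cannot be told apart.

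Mmp2, the gelatinase of stromal cells, was high in both mesenchymal populations. In SP it was 206.9, 162.3, 149.7, 153.7 and 252.0 RPKM in healthy mice (libraries C, L, M, N, O) and 304.7, 341.3, 257.0, 839.0 and 159.7 in myeloma-bearing mice (D, E, G, I, J). In OP it was 132.6, 327.5, 295.6 and 173.6 RPKM in healthy mice (L, M, N, O) and 200.5, 235.8, 272.3 and 166.0 in myeloma-bearing mice (D, G, I, J). Every SP and OP library was above every EC library, where Mmp2 ran from 0.619 to 25.8 RPKM in healthy and from 0.898 to 29.9 in myeloma-bearing mice. The ranges of SP and OP overlapped in both kinds of mice.

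Mmp9, the gelatinase of osteoclasts and neutrophils, passed 1 RPKM in 5 of 38 libraries. These were SP libraries L (20.55 RPKM) and O (15.8) of healthy mice, SP library E (6.40) of myeloma-bearing mice, and OP libraries G (15.3) and I (3.02) of myeloma-bearing mice. No EC library had more than 5 reads of Mmp9, and none of the 5 central marrow myeloma libraries had a read, where a count of 0 allows up to 3 reads per library. Mmp9 was too low for a test in all 13 comparisons between 2 groups.

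**Figure D1:**
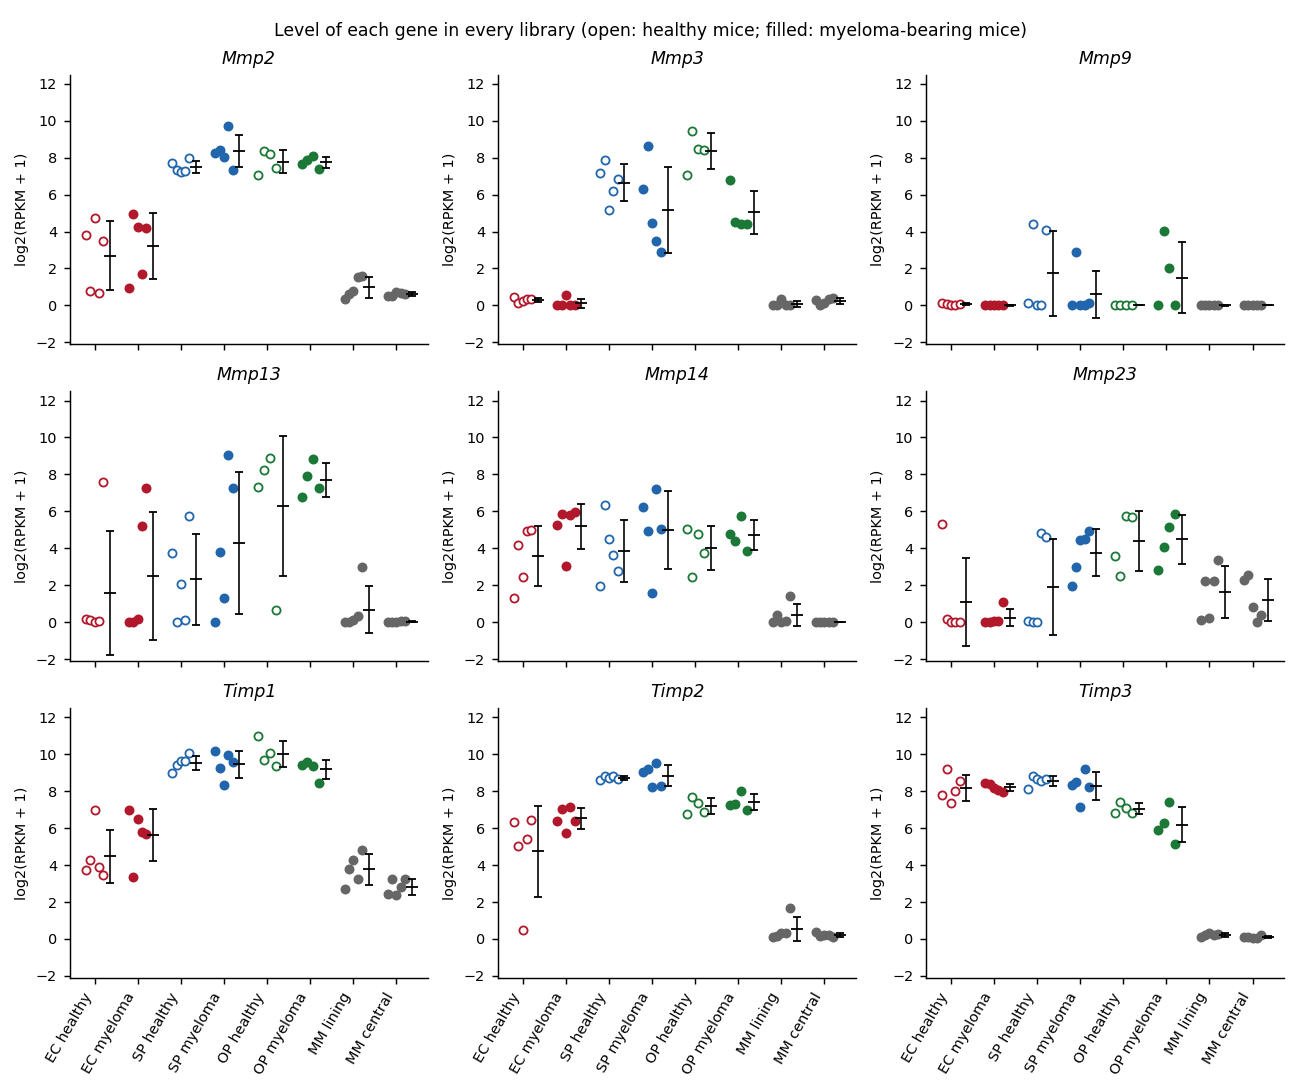
Level of each of the 9 genes in every library as log2(RPKM + 1), in endothelial cells (EC), stromal progenitors (SP), osteoprogenitors (OP) and myeloma cells (MM) of the bone lining and central marrow. Points are libraries (open for healthy, filled for myeloma-bearing mice), and the black marks are the mean and SD; Mmp2 is at least 132.6 RPKM in all SP and OP libraries and at most 29.9 in EC, while Timp3 is at least 160.5 RPKM in all EC libraries.

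Mmp3, the stromelysin, was likewise a gene of the mesenchymal cells. In OP it was 132.5, 703.6, 353.9 and 335.2 RPKM in healthy mice (L, M, N, O) and 108.9, 22.05, 20.04 and 20.48 in myeloma-bearing mice (D, G, I, J). No OP library of myeloma-bearing mice reached the lowest OP library of healthy mice, with means of 42.87 ± 44.04 (SD, n = 4) and 381.3 ± 237.1 RPKM (SD, n = 4). The log2 fold change of -3.31 chose the gene, and it was -3.90 without library D, which had 1987 reads of Mmp3 against 452 to 730 in the other 3 libraries. Marker genes of the same OP libraries are given beside it. Sp7, the osteoblast factor osterix, was 1.51, 2.67, 2.22 and 30.6 RPKM in healthy (L, M, N, O) and 25.7, 11.2, 17.2 and 11.7 in myeloma-bearing mice (D, G, I, J). The summed osteoprogenitor genes had a median of 18776 RPKM (8096 to 51822) in healthy and 38289 (28393 to 64333) in myeloma-bearing mice, and the summed neutrophil genes 75.4 (38.15 to 93.11) and 11.9 (0.304 to 47.41). Their part in the fall of Mmp3 was not tested. In SP Mmp3 was 142.9, 229.7, 35.39, 73.62 and 111.8 RPKM in healthy mice (C, L, M, N, O) and 76.81, 396.7, 20.7, 10.11 and 6.526 in myeloma-bearing mice (D, E, G, I, J). It was at most 0.478 RPKM (14 reads) in EC and at most 0.313 RPKM (12 reads) in MM.

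Mmp13, the collagenase, was high in OP but uneven between libraries of 1 group. In OP it was 158.3, 305.9, 481.5 and 0.610 RPKM in healthy mice (L, M, N, O) and 107.9, 243.6, 457.6 and 152.5 in myeloma-bearing mice (D, G, I, J). OP library O of healthy mice, with 30 reads of Mmp13, had 30.6 RPKM of the osteoblast factor Sp7 and 45659 of Bglap, which encodes osteocalcin, the highest of its group for both. In SP Mmp13 was 12.27, 0, 3.159, 0.0685 and 52.25 RPKM in healthy mice (C, L, M, N, O) and 0, 12.75, 1.475, 537.2 and 150.5 in myeloma-bearing mice (D, E, G, I, J), so that only SP libraries I and J reached the level of the other OP libraries. The SD of log2(RPKM + 1) was 3.8 in OP of healthy mice and 3.85 in SP of myeloma-bearing mice, against a median over all genes tested of 0.73 and 1.19.

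Mmp14 and Mmp23 are the membrane-bound proteases of the set. Mmp14 had reads in every niche library and no clear order between the cell types, with 1.47 to 30.5 RPKM in EC, 2.87 to 80.5 in SP and 4.42 to 32.4 in OP of healthy mice. In myeloma-bearing mice it was 7.33 to 60.6 RPKM in EC, 1.96 to 148.3 in SP and 13.3 to 53.6 in OP. Mmp23 was found in all 8 OP libraries, at 11.2, 4.58, 52.3 and 51.4 RPKM in healthy mice (L, M, N, O) and 6.12, 15.85, 34.9 and 56.2 in myeloma-bearing mice (D, G, I, J). In SP of healthy mice it was split, with 27.95 and 23.5 RPKM in libraries N and O and at most 0.0354 in the other 3, while the 5 SP libraries of myeloma-bearing mice held 2.91 to 30.05 RPKM. In EC only library C of healthy mice (39.5 RPKM) and library J of myeloma-bearing mice (1.13) passed 1 RPKM.

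The 3 inhibitors each had their own order of cell types. Timp1, an inhibitor of most secreted members, was 2047, 826.6, 1064 and 656.1 RPKM in OP of healthy mice (L, M, N, O), 514.3, 676.9, 786.5, 785.5 and 1074 in SP of healthy mice (C, L, M, N, O) and 12.1, 18.7, 125.1, 13.8 and 10.1 in EC of healthy mice (C, L, M, N, O). Timp2, which inhibits Mmp2 and also takes part in its activation, was 385.0, 448.6, 413.0, 451.4 and 399.2 RPKM in SP, 107.1, 205.2, 165.6 and 117.1 in OP and 81.0, 32.0, 0.401, 41.4 and 86.0 in EC of healthy mice, in the same library order. Timp3, which is bound to the matrix, was 277.9, 458.5, 402.2, 375.2 and 401.8 RPKM in SP, 113.3, 171.4, 137.5 and 110.1 in OP and 216.7, 591.2, 160.5, 259.7 and 370.8 in EC of healthy mice. Timp1 was thus lowest in EC, whereas Timp3 was lowest in OP apart from overlap between 1 OP and 1 EC library. Timp2 in SP of healthy mice had an SD of 0.10 on the log2 scale, against a median of 1.00 over all genes tested. Timp1 overlaps Syn1 and Timp3 overlaps Syn3 on the opposite strand, and the libraries do not mark strand, but Syn1 reached at most 13.5 RPKM and Syn3 at most 2.38 RPKM in any library. Timp2 overlaps Cep295nl on its own strand, a gene that is not in the RNA-Seq table.

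The cell types were first compared within healthy mice by limma on log2(RPKM + 1). Genes were tested where 4 or more of the compared libraries exceeded 1 RPKM. A gene that met this only through the group where it was high had to differ, so called genes above 1 RPKM in fewer than 4 libraries of their low group are given as descriptions without a p, although the counts of calls hold them. A gene was called at a Benjamini-Hochberg adjusted p below 0.1 over all genes tested and an absolute log2 fold change above 1. Between OP and SP, 2 of 7 members tested were called, beside 3.58% of all genes, and both were lower in OP. Timp2 was 148.7 ± 45.5 RPKM in OP (SD, n = 4) and 419.4 ± 29.6 in SP (SD, n = 5), a log2 fold change of -1.54 ± 0.30 (SE; limma adjusted p = 0.0141). Timp3 was 133.1 ± 28.3 RPKM in OP and 383.1 ± 66.2 in SP, a log2 fold change of -1.52 ± 0.31 (limma adjusted p = 0.0152). The OP and SP libraries did not overlap for either inhibitor, a description given without the share of all genes that did so. Without SP library L, which was high in neutrophil genes, the log2 fold changes were -1.51 for Timp2 and -1.45 for Timp3 and both were called (limma adjusted p = 0.0302 and 0.035). Both calls were kept by voom-limma and were lost in a fit without a trend of the variance with the mean. That of Timp2 was also lost with all 38 libraries in the fit (limma adjusted p = 0.284). Of all genes 147 were higher and 165 lower in OP, which became 206 and 133 after scaling to total reads. Mmp13 and Mmp23 had larger but more variable log2 fold changes of 3.97 ± 1.55 and 2.48 ± 1.26, which were not called (limma adjusted p = 0.268 and 0.436). Timp1, Mmp2 and Mmp14 had 0.48, 0.26 and 0.16, also not called, and the log2 difference of 1.70 for Mmp3 was not tested.

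Between EC and SP of healthy mice 4 of 7 members tested were called, all lower in EC, beside 17.3% of all genes. Of the 4 members above 1 RPKM in 4 or more libraries of both groups, 2 were called, Timp1 and Timp2. Here and below, counts under this stricter filter are descriptions, since the share of all genes under it is not given. Mmp3 was above 1 RPKM in 0 of 5 EC libraries and passed the filter through SP alone, and Mmp2 was above it in 3 of 5, so their differences are descriptions. Mmp3 was 0.230 ± 0.0954 RPKM in EC and 118.7 ± 74.0 in SP (SD, n = 5 each), a log2 fold change of -6.35 ± 0.77, and Mmp2 had -4.81 ± 0.84. Timp1 had -5.08 ± 0.65 (limma adjusted p = 9.29e-05) and Timp2 -3.97 ± 0.93 (0.0103). None of these 4 genes overlapped between the groups, a description given without the share of all genes that did so. The value of Timp2 was -2.9 without EC library M, which held 34 reads of it, and down to -4.39 without another library. Timp3, by contrast, was not called, at 319.8 ± 170.2 RPKM in EC and 383.1 ± 66.2 in SP, with a log2 fold change of -0.39 (95% interval -1.28 to 0.50, limma adjusted p = 0.634). Mmp14 (-0.28, limma adjusted p = 0.91) and Mmp13 (-0.73, 0.828) were not called either. Mmp13 was above 1 RPKM in 1 of 5 EC libraries, library O, which was high in osteoprogenitor genes, and without it Mmp13 passed the filter neither here nor against OP. Against OP, which shares the EC libraries with the former comparison, 2 of 7 members tested were called, both lower in EC, beside 16.5% of all genes. With all 38 libraries in the fit 6 were called, beside 2232 of 8258 genes, and 3 by voom-limma, beside 1223 genes. Of the 4 members above 1 RPKM in 4 or more libraries of both groups 1 was called, Timp1, and Mmp2 was above 1 RPKM in 3 of 5 EC libraries. The 1361 genes called in all became 606, 630, 585 and 567 without OP library L, M, N or O. The 2 members called were Timp1, with a log2 fold change of -5.56 ± 0.74 (limma adjusted p = 0.000297), and Mmp2, with -5.07 ± 0.95 as a description. Mmp13 (-4.70), Mmp23 (-3.28), Timp2 (-2.43) and Timp3 (1.13) were not called (limma adjusted p = 0.149, 0.129, 0.191 and 0.175), and Mmp3 (-8.05) was not tested. Mmp23 likewise exceeded 1 RPKM in 1 of 5 EC libraries.

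In myeloma-bearing mice, which are other animals, the same 2 inhibitors were called between OP and SP among 7 members tested, beside 3.35% of all genes. Timp3 was 57.9, 75.7, 171.5 and 34.5 RPKM in OP (D, G, I, J) and 324.6, 363.4, 139.9, 591.3 and 303.8 in SP (D, E, G, I, J), a log2 fold change of -2.11 ± 0.53 (limma adjusted p = 0.05). Timp2 was 152.6, 158.1, 257.7 and 126.9 RPKM in OP and 517.2, 576.6, 300.2, 724.8 and 313.2 in SP, a log2 fold change of -1.45 ± 0.40 (limma adjusted p = 0.0793). The groups did not overlap for Timp2, again a description without the share of all genes, while for Timp3 SP library G lay below OP library I. These calls were close to the threshold. Without SP library E, which was high in neutrophil genes, the log2 fold changes were -2.06 for Timp3 and -1.36 for Timp2 and neither was called (limma adjusted p = 0.108 and 0.183), and neither was called without OP library D, G or J. Of all genes 141 were higher and 154 lower in OP, which became 185 and 117 after scaling to total reads.

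Between EC and SP of myeloma-bearing mice 5 of 8 members tested were called, all lower in EC, beside 16.1% of all genes. The log2 fold changes were -5.14 ± 0.80 for Mmp2 (limma adjusted p = 0.000426), -3.81 ± 0.62 for Timp1 (0.00061), -2.32 ± 0.43 for Timp2 (0.00171), and -5.03 ± 1.04 for Mmp3 and -3.52 ± 0.80 for Mmp23. Mmp3 was above 1 RPKM in 0 and Mmp23 in 1 of 5 EC libraries, so both entered through SP and their values are descriptions, while 3 of the 5 members above 1 RPKM in 4 or more libraries of both groups were called. Timp3 again did not pass, with -0.08 (95% interval -0.93 to 0.76). Of all genes 617 were higher and 795 lower in EC, which became 908 and 641 after scaling to total reads. Against OP, 5 of 7 members tested were called, beside 17.7% of all genes, and 3 of the 5 that were above 1 RPKM in 4 or more libraries of both groups. Mmp2 (-4.55 ± 0.84, limma adjusted p = 0.00227) and Timp1 (-3.55 ± 0.65, 0.00225) were lower in EC, and Timp3 was higher in EC (2.03 ± 0.48, limma adjusted p = 0.0104). Mmp13 (-5.18 ± 1.43) and Mmp23 (-4.23 ± 0.81), above 1 RPKM in 2 and 1 of 5 EC libraries, entered through OP and are descriptions. Timp3 was 249.5 to 345.0 RPKM in these EC libraries, all above the 34.5 to 171.5 RPKM of OP. Without EC libraries I and J, which were high in osteoprogenitor genes, Mmp13 was at most 0.115 RPKM in EC and passed the filter through OP alone, so its log2 fold change of -7.65 is a description.

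**Figure D2:**
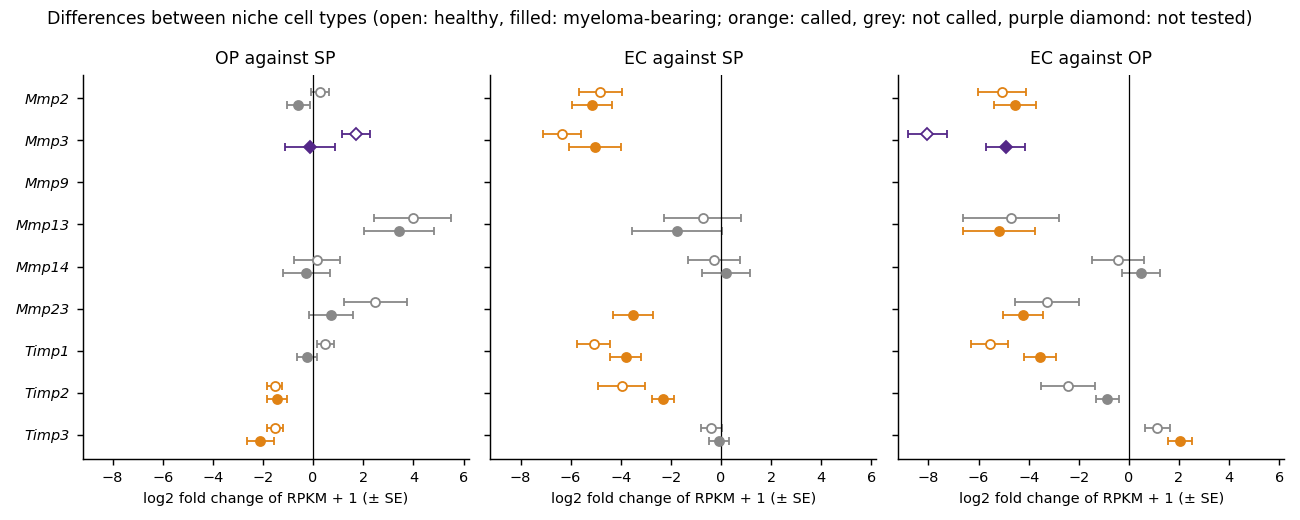
Log2 fold changes of the members between osteoprogenitors (OP), stromal progenitors (SP) and endothelial cells (EC), within healthy (open) and within myeloma-bearing mice (filled), with SE. Orange points were called and grey points were not, and purple diamonds are Mmp3 in comparisons with OP, which were not tested; for OP against SP the called points are Timp2 and Timp3, between -2.11 and -1.45.

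Myeloma-bearing and healthy mice were then compared within each niche cell type, which is the comparison the sorting was designed for. In EC 0 of 5 members tested were called, beside 0.0% of all genes. With all 38 libraries in the fit 258 of 7880 genes were called, and again 0 members. No member had an unadjusted p below 0.05 (414 of 7880 genes had), and 0 members were called by voom-limma on the recovered reads. Timp2 was 83.2, 128.5, 52.1, 140.1 and 81.6 RPKM in myeloma-bearing mice (D, E, G, I, J), a log2 fold change of 1.78 (95% interval -0.27 to 3.83, limma adjusted p = 0.925). Without healthy library M, which held 34 reads of Timp2, the log2 fold change was 0.72. Mmp14 was 1.47, 16.9, 4.54, 30.04 and 30.5 RPKM in healthy (C, L, M, N, O) and 38.1, 57.5, 7.33, 54.5 and 60.6 in myeloma-bearing mice (D, E, G, I, J). Of the latter all but library G lay above every healthy library, with a log2 fold change of 1.62 (95% interval -0.48 to 3.72, limma adjusted p = 0.937). The log2 fold change was 1.18 (-0.77 to 3.12) for Timp1, 0.50 (-2.08 to 3.09) for Mmp2 and 0.03 (-0.94 to 1.0) for Timp3, and the median over the 5 members was 1.18 against 0.07 over all genes tested. For Timp1 it was 1.8 without healthy library M, which had 125.1 RPKM of it, and 0.84 without myeloma library D, and for Mmp14 it was 1.05 without healthy library C.

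In SP 0 of 8 members tested were called, beside 0.0% of all genes, with 0 members and 437 of 8747 genes at an unadjusted p below 0.05 and 0 members called by voom-limma. With all 38 libraries in the fit 31 genes and 0 members were called. The inhibitors had the smallest differences, with log2 fold changes of -0.09 (95% interval -0.83 to 0.65) for Timp1, 0.13 (-0.55 to 0.81) for Timp2 and -0.28 (-1.06 to 0.51) for Timp3. Among the proteases it was 0.84 (-0.04 to 1.71) for Mmp2, 1.14 (-0.98 to 3.25) for Mmp14, 1.86 (-0.60 to 4.32) for Mmp23 and 1.96 (-1.33 to 5.24) for Mmp13. These values moved when 1 library was left out, from 0.5 to 1.09 for Mmp2, 0.58 to 1.99 for Mmp14, 1.39 to 2.6 for Mmp23 and 0.76 to 3.03 for Mmp13, and the lowest for Mmp2, Mmp14 and Mmp13 was without myeloma library I. Mmp3 in SP had a log2 fold change of -1.50 (95% interval -3.35 to 0.35, limma adjusted p = 0.956). Its choice did not use the SP libraries, but they may come from the same mice as the OP libraries, so this is no independent check. SP libraries G, I and J of myeloma-bearing mice lay below every healthy SP library for Mmp3, and library E lay above all of them. Without SP libraries L and E, which were high in neutrophil genes, it was -2.07 (limma adjusted p = 0.919), and it was -2.37 without library E alone and -0.94 without library J.

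In OP 0 of 7 members tested were called, beside 0.0115% of all genes (1 gene, or 16 with all 38 libraries in the fit), and 0 members were called by voom-limma or with all 38 libraries. Timp1 alone had an unadjusted p below 0.05 (422 of 8664 genes had). It was 679.9, 750.3, 664.2 and 345.3 RPKM in myeloma-bearing mice (D, G, I, J), a log2 fold change of -0.83 (95% interval -1.66 to -0.01, limma adjusted p = 0.981). It was -0.51 without healthy library L and -1.06 without healthy library O, and that of Timp3, given next, was -0.52 without myeloma library J. The log2 fold change was -0.86 (-1.92 to 0.19) for Timp3, 0.69 (-0.90 to 2.29) for Mmp14, 0.22 (-0.62 to 1.06) for Timp2, 0.09 (-1.79 to 1.98) for Mmp23 and -0.02 (-0.85 to 0.82) for Mmp2. For Mmp13 it was 1.41 (-1.37 to 4.19) and turned to -0.46 without healthy library O.

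The difference between 2 cell types in their response was tested as an interaction. It was called for 0 of 8 members between EC and SP (0.0% of all genes), 0 of 7 between EC and OP (0.0%) and 0 of 8 between OP and SP (0.0%). In these tests 0 members and 552, 516 and 437 genes, respectively, had an unadjusted p below 0.05, and 0 members were called by voom-limma. For Mmp3, which was not tested here, the response in OP minus that in SP was -1.81 ± 1.25 (SE) on the log2 scale.

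**Figure D3:**
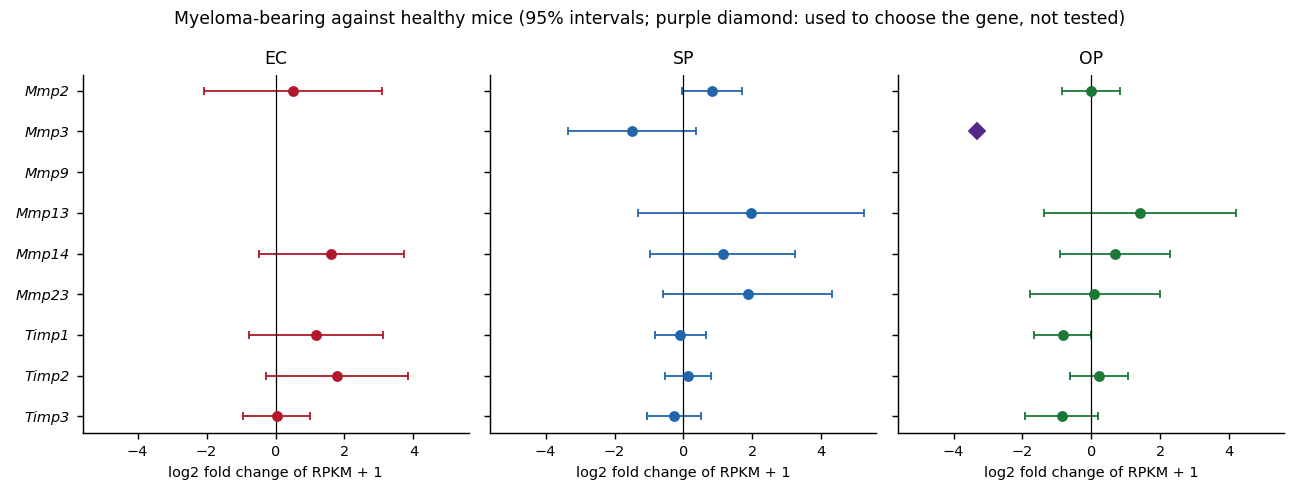
Log2 fold changes of the members in myeloma-bearing against healthy mice in endothelial cells (EC), stromal progenitors (SP) and osteoprogenitors (OP), with 95% intervals. The purple diamond is Mmp3 in OP (-3.31), which was chosen for this value and not tested; no other point was called, and only the interval of Timp1 in OP (-1.66 to -0.01) leaves out 0.

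Myeloma cells held little of the members other than Timp1. Timp1 was 5.63, 12.8, 18.7, 8.46 and 27.4 RPKM in the bone lining and 4.36, 8.48, 4.17, 6.10 and 8.54 in the central marrow (D, E, G, I, J in both). Between the 2 sites 0 of 2 members tested were called, beside 0.203% of all genes, with 1 member and 530 of 8857 genes at an unadjusted p below 0.05 and 0 members called by voom-limma. Timp1 had a log2 fold change of 0.95 (95% interval 0.04 to 1.86, limma adjusted p = 0.83) and Mmp23 of 0.42 (-1.0 to 1.84). Mmp23 ranged from 0.0853 to 9.40 RPKM at the bone lining and from 0 to 4.82 RPKM in central marrow. Library J of the bone lining was the highest of its group for Timp1, Timp2 (2.15 RPKM), Mmp2 (2.07), Mmp13 (6.88), Mmp14 (1.64) and Mmp23 (9.40), and it also held 12.6 RPKM of Col1a1, the bone collagen gene, against at most 0.91 in the other 4. The part of RNA from other bone-lining cells in these values was not tested.

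Bone-lining myeloma cells were then set against the niche cells of myeloma-bearing mice. In them Timp1 was above 1 RPKM in 5 of 5 libraries, Mmp23 in 3, Mmp2 in 2, Mmp13, Mmp14 and Timp2 in 1 each, and Mmp3 and Timp3 in 0. Apart from Timp1, and from Mmp23 against EC, the members passed the filter mainly through the niche cells, so the counts that follow are descriptions. Against EC 5 of 6 were called, all lower, beside 41.5% of all genes, from -7.99 ± 0.43 for Timp3 to -1.87 ± 0.70 for Timp1 (limma adjusted p = 0.0555). Mmp23 had 1.39 ± 0.62 and was not called (limma adjusted p = 0.102). The call of Timp1 was lost under 8 alternatives, and 4 to 6 members were called when 1 library was left out. Without EC libraries I and J, 3 members were called, since Timp1 lost its call (limma adjusted p = 0.135) and Timp3 no longer passed the filter. Against SP all 8 members tested were called and lower, beside 42.4% of all genes, from -8.32 ± 0.49 for Timp2 to -2.13 ± 0.80 for Mmp23. Leaving out 1 library gave 6 to 8 of these calls, and those of Mmp13 and Mmp23 were lost under 8 and 7 alternatives. Against OP all 7 were called and lower, beside 42.9% of all genes, from -7.01 ± 0.70 for Mmp13 to -2.84 ± 0.82 for Mmp23. The 3 comparisons share the myeloma libraries. The median over all genes was 0.35 to 0.49 in these comparisons, and 0.82 to 1.02 after scaling to total reads. The genes higher and lower in myeloma cells then went from 2224 and 1783 to 3897 and 1431 against SP, and from 2278 and 1718 to 3428 and 1416 against OP.

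Summed on the RPKM scale, the 3 member inhibitors exceeded the 6 member proteases in 37 of 38 libraries. The exception was OP library M of healthy mice, with 1346 RPKM of proteases, 52.3% of it Mmp3, and 1203 RPKM of inhibitors. The ratio of proteases to inhibitors had a median of 0.767 in OP of healthy and 0.666 of myeloma-bearing mice, 0.246 and 0.395 in SP, and 0.107 and 0.184 in EC. The values of OP hold Mmp3, which was chosen for its fall there, and without Mmp3 the medians were 0.402 in OP of healthy and 0.645 of myeloma-bearing mice, so that their order turned. OP had higher medians than SP and EC of the same mice with and without Mmp3, although the ranges of the cell types overlapped. These are mRNA levels, and protein or activity was not measured.

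The makeup of the inhibitors differed between cell types, which is given as a description. Timp3 was 56.1% to 92.1% of the sum of Timp1, Timp2 and Timp3 in the 10 EC libraries and 16.2% to 28.9% in the 10 SP libraries. Timp4, which is no member and not in these sums, was 61.4 ± 94.9 RPKM (SD) in EC of myeloma-bearing mice. Timp1 was 60.7% to 90.3% in the 8 OP libraries, 39.1% to 58.0% in SP and 91.8% to 97.9% in MM. The highest share of Timp2 was found in SP, at 39.3%. Among the proteases Mmp2 was 32.9% to 85.1% of the sum in SP. Mmp3 was 28.4% to 58.4% of the proteases in OP of healthy mice, and in those of myeloma-bearing mice 24.2% in library D and 2.4% to 5.0% in the other 3, where Mmp13 was 37.3% to 54.4%.

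**Figure D4:**
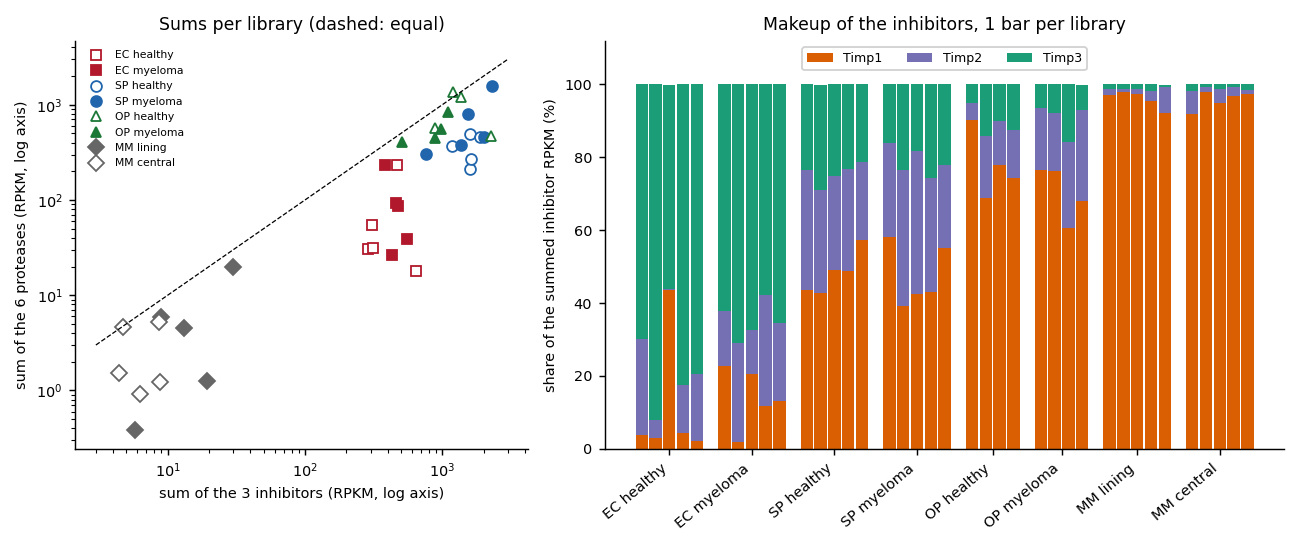
Left, summed RPKM of the 6 proteases against that of the 3 inhibitors in each library, on log axes, with a line where both are equal; 37 of 38 libraries have more inhibitor. Right, share of each Timp in the summed inhibitors, 1 bar per library; Timp3 takes 56.1% to 92.1% in endothelial cells and Timp1 60.7% to 90.3% in osteoprogenitors.

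Some high values of members came from libraries that also held genes of other cell types. In EC Mmp13 was 192.2 RPKM in library O of healthy mice and 35.99 and 152.5 in I and J of myeloma-bearing mice, the libraries with the highest osteoprogenitor sums, and at most 0.115 RPKM in the other 7. Those sums (104.1, 155.0 and 124.2 RPKM) compare with at least 8096 RPKM in OP, and Sp7 was at 0 in all 3 libraries. Ibsp, which encodes bone sialoprotein, was 208 and 530 RPKM in I and J but 3.37 in O, and it was 53.6 in library C of healthy and 72.6 in E of myeloma-bearing mice, which are among the other 7. Spp1, which encodes osteopontin, was 5984 and 6302 RPKM in I and J, within its range of 5136 to 25882 in OP, but 10.2 in O and at most 503 in the other 7. Ctsk was 141 RPKM in O and 193 in E of myeloma-bearing mice, and at most 3.99 in the other 8. The part of osteoprogenitor RNA in the Mmp13 values of EC was not tested.

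In SP Mmp9 was 20.55 RPKM in library L of healthy and 6.40 in E of myeloma-bearing mice, the libraries with neutrophil sums of 7273 and 8119 RPKM. Mmp8, the neutrophil collagenase, was 80.2 and 13.5 RPKM there and at 0 in the other 8 SP libraries. Ptprc, which encodes CD45, was 4.89 RPKM in E but 0.0103 in L and at most 0.0516 in the other 8. SP were gated as negative for CD45. These libraries also had the highest Mmp3 of their groups, at 229.7 and 396.7 RPKM. SP library O of healthy mice had 15.8 RPKM of Mmp9 with a neutrophil sum of 40.07, and the highest sum of the 3 osteoclast genes in the table (94.67 RPKM, with 4.45 to 51.93 in the other healthy SP libraries), 67.4 of it from Acp5. OP library G of myeloma-bearing mice had 15.3 RPKM of Mmp9 with a neutrophil sum of 1.25 and an osteoclast sum of 3.73. The part of neutrophils and osteoclasts in these values was not tested.

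**Figure D5:**
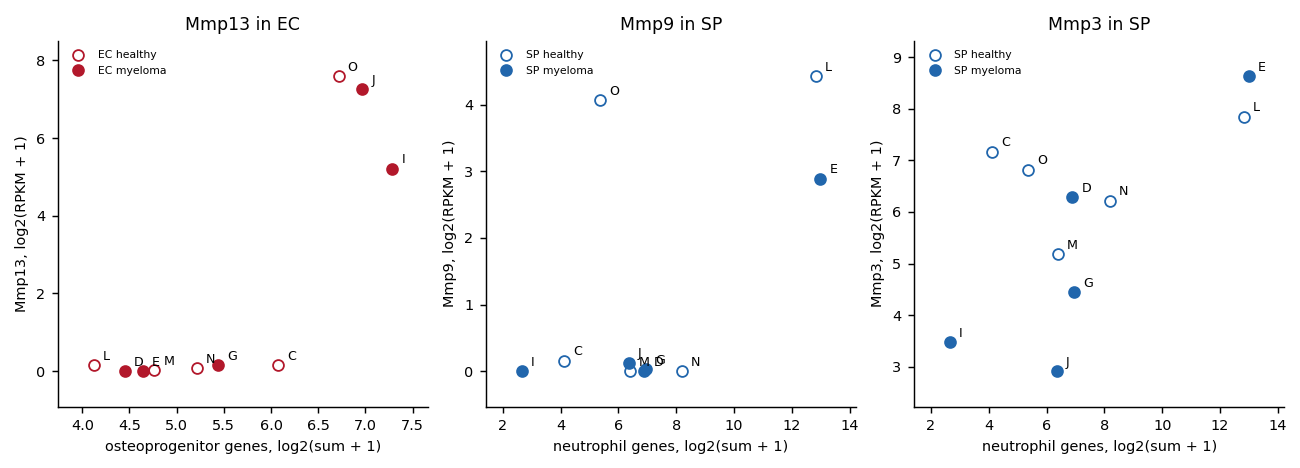
Mmp13 in endothelial libraries (EC) against the summed osteoprogenitor genes, and Mmp9 and Mmp3 in stromal libraries (SP) against the summed neutrophil genes, on log2 axes (open for healthy, filled for myeloma-bearing mice). EC libraries O, I and J have both the highest osteoprogenitor sums (104.1 to 155.0 RPKM) and the only Mmp13 above 0.115 RPKM, and SP libraries L and E have neutrophil sums of 7273 and 8119 RPKM.

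Genes of related protease systems were examined as 7 lists. In myeloma-bearing against healthy mice 0 of 35, 43 and 43 list genes tested were called in EC, SP and OP, beside 0.0%, 0.0% and 0.0115% of all genes. Of them 0, 2 and 2 had an unadjusted p below 0.05, beside 414, 437 and 422 of all genes, and 0 were called by voom-limma. Between cell types several were called, some of which passed the filter through 1 group alone and are given without a test. Of 17 other Mmp genes 6 were in the table, and Mmp16, a membrane-bound member, was 25.6 ± 20.3 RPKM in OP and 0.669 ± 1.45 in SP of myeloma-bearing mice, above 1 RPKM in 4 of 4 and 1 of 5 libraries. Of 6 genes listed with other inhibitors 5 were in the table. A2m, the broad protease inhibitor alpha-2-macroglobulin, was 28.5 ± 5.28 RPKM in OP and 0.00579 ± 0.0086 in SP of healthy mice, and 39.2 ± 32.1 and 0.2 ± 0.345 in myeloma-bearing mice, with 0 of 5 SP libraries above 1 RPKM in either. In EC of healthy mice 2 of 4 genes tested of this list were lower than in SP, beside 17.3% of all genes called. They were Pcolce, which encodes an enhancer of a procollagen protease (14.8 ± 15.5 RPKM in EC and 396 ± 89.1 in SP), and the membrane-anchored inhibitor Reck (4.2 ± 7.66 and 34.0 ± 4.28). As they were above 1 RPKM in 3 and 2 of 5 EC libraries, both are descriptions.

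Of 19 Adamts genes 12 were in the table and 5 were tested between EC and SP of healthy mice, where 17.3% of all genes were called. Adamts1 was 101 ± 76.7 RPKM in EC and 6.69 ± 6.55 in SP, above 1 RPKM in 5 of 5 EC and 3 of 5 SP libraries. Adamts9 was 15.7 ± 20.9 RPKM in EC with 0 of 5 SP libraries above 1 RPKM, and Adamts2, a procollagen peptidase, was 28.8 ± 17.9 in SP with 1 of 5 EC libraries above 1 RPKM, so all 3 are descriptions. Of 9 Adam genes 7 were in the table, and 2 of 6 tested were higher in EC than in SP of healthy mice, Adam10 and Adam12. Adam10, a sheddase, was above 1 RPKM in every library of both groups (log2 fold change 2.57 ± 0.67, limma adjusted p = 0.0194). Adam12 was 22.8 ± 12.9 RPKM in EC and 2.72 ± 4.68 in SP, where 2 of 5 libraries were above 1 RPKM, and is a description. Of 8 genes of plasminogen activation 5 were in the table, and all 4 tested were lower in EC than in OP of healthy mice, beside 16.5% of all genes called, among them Serpine2, a serine protease inhibitor (151 ± 140 against 2653 ± 430 RPKM, -5.22 ± 1.09, limma adjusted p = 0.00621), and, as a description with 3 of 5 EC libraries above 1 RPKM, Plat, the tissue plasminogen activator (3.97 ± 5.99 against 77.4 ± 51.8 RPKM). Against SP of healthy mice 2 of 4 of these genes were lower in EC, and in myeloma-bearing mice 1 of 4 against OP and 1 of 5 against SP (Serpine2 in both), beside 17.7% and 16.1% of all genes called. All 11 cathepsins and cystatins were in the table, and 3 of 10 tested were lower and 1 higher in EC than in SP of healthy mice, among them Ctsk, the collagen-degrading cathepsin K, which was 314 ± 195 RPKM in SP and above 1 RPKM in 1 of 5 EC libraries. Between bone-lining myeloma cells and EC 2 of 11 were higher and 4 lower in myeloma cells, beside 41.5% of all genes called. Ctss, 1 of the 2, was 1608 ± 519 RPKM in myeloma cells and 19.5 ± 34.5 in EC, where 3 of 5 libraries were above 1 RPKM. Of 12 genes of proenzyme activation and collagen uptake, all in the table, 5 of 11 tested were lower in EC than in SP of healthy mice, among them Cd44 (74.8 ± 22.7 RPKM in SP) and Lrp1, an uptake receptor (36.0 ± 12.7), each above 1 RPKM in 1 of 5 EC libraries.

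The genes most like each member were found by Pearson's r of log2(RPKM + 1) over the 38 libraries among 12683 genes, as a description, since the libraries of 1 cell type share much of their expression. Mmp2 was most like Col6a1 and Thbs1 (both 0.959) and Fn1 (0.958), which encode proteins of the matrix. Mmp3 was most like Vit (0.941), C1qtnf2 (0.935) and Scrg1 (0.934), and Mmp13 was most like Cdh11 (0.807), Tnc (0.786) and Slit2 (0.786). Mmp14 was most like the heat shock genes Hspa1a (0.882) and Hspa1b (0.879) and Hspg2 (0.87). Hspa1a and Hspa1b are near-identical copies whose reads cannot be split with certainty. For Mmp23 these were Sfrp5 (0.751), Irs1 and Creb3l1 (both 0.75), and for Mmp9 Src (0.803), D630003M21Rik (0.754) and Homer2 (0.732), with Mmp9 above 1 RPKM in 5 libraries. Timp1 was most like Fn1 (0.952), Col6a2 and Scara3 (both 0.945), Timp2 like Pmp22 (0.974), Bhlhe40 (0.956) and Bgn (0.953), and Timp3 like Vim (0.985), Klf2 (0.977) and S100a6 (0.974). Among the members themselves Mmp2 and Timp2 had r = 0.83 over all 38 libraries, 0.71 within the 10 SP and 0.86 within the 8 OP libraries, but -0.2 within the 10 EC libraries. The neighbours Mmp3 and Mmp13 had 0.44 over all libraries, but -0.49 within SP, -0.28 within OP and -0.27 within EC.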

How the data were processed

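RNA-Seq was performed on SmartSeq2 libraries of 100 sorted cells. The authors aligned single-end reads with STAR 2.4.0 to GRCm38 (mm10), counted them per gene with featureCounts (Subread 1.4.5-p1), kept expressed genes and deposited RPKM values calculated with edgeR. RPKM steps gave whole reads for all 13260 genes, with 9735031 to 34883291 reads per library (median 18358479), which set the precision of low values. Values near 1 read carry large counting error, and amplified reads are not independent molecules.

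Libraries were grouped by their labels. Pairs of groups were compared by the two-sided moderated test of limma 3.58.1 (R 4.3.3; variance trend allowed) on log2(RPKM + 1), fitted on the compared libraries with genes above 1 RPKM in 4 or more of them. Folds on this scale understate changes of low genes. A call needed a Benjamini-Hochberg adjusted p under 0.1 together with a log2 fold change beyond 1 in size, also for the 3 interactions. The replicates are separate mice, and p-values measure the spread between these libraries. The same letter in 2 groups may mark 1 mouse, which the labels do not state, and the main fits were unpaired. Correlations of same-letter deviations were mostly below 0.1 (range -0.049 to 0.145). Yet 21 of 45 same-letter pairs correlated best with their own letter, where 10 would with no relation. Pairing is thus not excluded, and p-values between cell types would ignore it.

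The text names all 9 members, the 3 genes most like each, and up to 3 called genes per list and comparison. Members and lists were chosen with earlier results of these data known. Mmp3 has no test in comparisons with osteoprogenitors. Alternatives were a stricter threshold, another pseudocount (0.1), no filter, all 38 libraries in 1 fit, no trend, voom-limma on the recovered reads, a replicate block and leaving out each library. Scaling to total reads and leaving out libraries high in other cell types' genes were added after seeing the data. The scripts (Python 3.11.15, pandas 2.3.3, matplotlib 3.10.9) were tested on simulated data. Motifs were searched in RefSeq promoter windows.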

Additional observations from a re-analysis of the deposited data

Results flagged for a closer look

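Of 55 combinations of a gene and a group examined, which leave out Mmp3 in osteoprogenitors, 11 held 1 library set apart from the others of its group by Dixon's test. This test flags about 1 in 20 groups by chance if values are normally distributed. Some flagged groups held the gene above 1 RPKM in the flagged library alone, such as Mmp23 in endothelial cells of myeloma-bearing mice, so the flags are descriptions. In osteoprogenitors of myeloma-bearing mice, library J had 345 RPKM of Timp1, against 664 to 750. In stromal progenitors of myeloma-bearing mice, library E had 6.40 RPKM of Mmp9, against at most 0.09.

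In endothelial cells of healthy mice, library O had 192 RPKM of Mmp13 (others at most 0.108) and library C had 39.5 RPKM of Mmp23 (others at most 0.119). Library M of the same group had 125 RPKM of Timp1 (others 10.1 to 18.7) and 0.401 RPKM of Timp2 (others 32.0 to 86.0), so that 1 library was both the highest for Timp1 and the lowest for Timp2. In endothelial cells of myeloma-bearing mice, library G had 7.33 RPKM of Mmp14, against 38.1 to 60.6, and library J had 1.13 RPKM of Mmp23, against at most 0.0519.

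Bone-lining myeloma library J stood apart for 3 members, with 6.88 RPKM of Mmp13 (others at most 0.249), 1.64 of Mmp14 (others at most 0.30) and 2.15 of Timp2 (others at most 0.26).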

How the results depend on the processing

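Over 55 named log2 fold changes, 928 alternative values kept their direction and their side of the threshold, 49 kept the direction and lost the call, 6 moved by more than the replicate SD and 1 reversed. The reversed value was Mmp13 in osteoprogenitors (1.41 in myeloma-bearing against healthy mice), which was -0.46 without healthy library O and ranged up to 2.28 when other libraries were left out. The 6 moved values are Mmp3 in endothelial or myeloma cells against osteoprogenitors, which reached -7.72 to -10.49 with a pseudocount of 0.1 or voom-limma. Of the members called, the 2 between osteoprogenitors and stromal progenitors of healthy mice became 1 with all 38 libraries in the fit and 0 with no trend. In myeloma-bearing mice the 2 became 0 at an adjusted p below 0.05, with no filter, with no trend or without the 2 stromal libraries high in neutrophil genes, 1 with all 38 libraries or scaled to total reads, and 0 to 2 when 1 library was left out. A replicate block, which also leaves out SP library E since it has no OP library of its letter, kept Timp3 (-2.06, limma adjusted p = 0.085) but not Timp2 (-1.36, 0.161) and gave 206 of all genes in place of 295, against 210 genes and a Timp2 of -1.36 (0.183) without library E alone. The main fits did not pair libraries by letter. Same-letter correlations were mostly below 0.1, yet 21 of 45 same-letter pairs correlated best with their own letter, where 10 would with no relation. This is a hint of pairing from the data, which the labels do not state. In the other comparisons the block gave the same count of members or 1 more. Healthy endothelial cells against osteoprogenitors went from 2 members to 6 with all 38 libraries, and bone-lining myeloma against endothelial cells from 5 to 3 without the 3 endothelial libraries highest in osteoprogenitor genes, where Timp1 lost its call and Timp3 no longer passed the filter. Leaving out 1 library gave 0 members in each comparison of myeloma-bearing with healthy mice. With all 38 libraries in the fit counts of all genes went from 0 to 258 in endothelial cells, 0 to 31 in stromal progenitors, 1 to 16 in osteoprogenitors, 1465 to 2376 and 1361 to 2232 between healthy endothelial cells and the 2 mesenchymal types, 295 to 543 between the mesenchymal types of myeloma-bearing mice, and 0 to 11, 25 and 16 for the interactions. An adjusted p below 0.05 moved 295 to 177, leaving out the 3 endothelial libraries moved 1412 to 873, and the 18 genes between myeloma sites became 1 with no filter and 8 with voom-limma. Endothelial cells then had 2 genes with no filter, 3 with no trend and 4 with voom-limma in place of 0. Leaving out 1 library gave 567 to 1372 genes in place of 1361, 181 to 343 in place of 312, 142 to 311 in place of 295 and 850 to 1470 in place of 1533. Depth limits values of a few reads, such as Mmp9 outside 5 libraries. The cause of these shifts was not tested.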
